A study of Homo sapiens with 12 samples.

Results

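The amino acid transporters described here are 8 genes of the plasma membrane transport system, SLC7A11, SLC7A5, SLC7A1, SLC38A1, SLC38A2, SLC1A4, SLC1A5 and SLC6A9. They were taken from the table of raw counts by gene symbol, a rule that uses no value although results of these data were known when the set was chosen, and make up 8 of the 43735 genes listed. All 8 passed the filter on low counts that left 14085 genes for testing. The RNA came from 12 cultures of MM1S, a multiple myeloma line sensitive to glucocorticoids, and of its resistant counterpart MM1R. Both lines come from the same patient and were grown in RPMI-1640 medium with fetal bovine serum, antibiotics, added non-essential amino acids and sodium pyruvate. Each line had 3 untreated cultures and 3 cultures exposed to 1 µM withaferin A (WA), a plant steroidal lactone, for 3 h. The cultures of a group had different passage numbers, 16, 22 and 23 for MM1S and 4, 6 and 7 for MM1R, and untreated and WA cultures of a line shared these numbers. The lines share no passage number, so that line and passage cannot be told apart, and the spread between cultures is that of 1 line each, not of patients.

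Cells take up amino acids through carriers that differ in substrate and in coupling. Exchangers such as SLC7A11 and SLC7A5 trade an internal amino acid for an external one and work as pairs with the heavy chain SLC3A2, whereas the sodium-coupled carriers SLC38A1, SLC38A2 and SLC6A9 load the cell against the gradient. When amino acids run short or the endoplasmic reticulum is stressed, the kinase arm that phosphorylates eIF2alpha raises translation of ATF4, and several of these transporters are known ATF4 target genes. SLC7A11 is in addition a target of NRF2, the regulator of the antioxidant response, because imported cystine supplies cysteine for glutathione. Plasma cells secrete antibody and are known for a high demand for amino acids.

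Total counts per culture lay between 17625110 and 19368343. NR3C1, the glucocorticoid receptor gene, was lower in untreated MM1R, at a log2 difference of -2.96 (adjusted p = 2.15e-06, edgeR), which goes with the labels of the lines. All 8 plasma cell markers reached 1 CPM (counts scaled to a common library size, with TMM-adjusted totals) in every culture. Their summed level was 9464 to 11790 CPM in MM1S and 12460 to 17840 CPM in MM1R. Of this, JCHAIN alone gave 5172 to 7384 CPM in MM1S and 8376 to 12680 CPM in MM1R. The sum does not describe each marker, as untreated CD38 was at 41.3 to 49.7 CPM in MM1R and 54.4 to 116 CPM in MM1S. None of the 4 mature B cell markers and none of the 4 myeloid markers reached 1 CPM in every culture, with summed levels of at most 0.213 and 1.35 CPM. The 4 T cell markers summed to between 3.99 and 11.9 CPM, the 4 erythroid markers to between 3.41 and 9.65 CPM and the 4 stromal markers to between 2.19 and 20.4 CPM, highest with WA. Their part in the results was not tested. Some cultures stood apart for the transporters. Untreated MM1S of passage 22 had the highest level among the 3 untreated MM1S cultures for all 8 genes, and among the WA cultures passage 23 of MM1S and passage 7 of MM1R had the highest levels of the stress gene DDIT3, 98.2 and 159 CPM against 19.4 to 36.4 CPM in the other 4. Calls with WA are given with and without these cultures, for single genes or as counts of a list.

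Of the 8 transporters, 3 rose with WA in both lines and none fell, where 6.46% of all genes fell in MM1R and 4.23% in MM1S. They were the cystine importer SLC7A11, the large neutral amino acid exchanger SLC7A5 and the cationic amino acid carrier SLC7A1, all members of the SLC7 family. Fold changes were 4.76, 2.21 and 1.69 in MM1R and 3.20, 2.07 and 1.59 in MM1S. In edgeR's quasi-likelihood test, with adjustment over all tested genes and a call at an adjusted p of 0.05, WA called 14% of all genes in MM1R (7.55% higher) and 10.5% in MM1S (6.25% higher). With all cultures the fitted log2 fold changes of the 8 transporters were above 0 in both lines, with medians of 0.49 in MM1R and 0.29 in MM1S, beside 0.01 over all tested genes in each line. With bulk RNA, a change in RNA per cell and a change in the share of cells that carry the RNA cannot be told apart.

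The upstream sequences of SLC7A5 and SLC7A1, which moved together, are shown because both genes rose and both windows are rich in G and C. They are the 250 bases before the start site in RefSeq on GRCh38.p14, read 5′ to 3′, with the GC box GGGCGG or its reverse complement in capitals. SLC7A5 holds 4 such boxes in these bases and a GC content of 79.6%, and SLC7A1 holds 6 and 84.4%, against a median GC content of 58.0% over 35116 promoter windows.
SLC7A5, chr16:87869508-87869757, minus strand: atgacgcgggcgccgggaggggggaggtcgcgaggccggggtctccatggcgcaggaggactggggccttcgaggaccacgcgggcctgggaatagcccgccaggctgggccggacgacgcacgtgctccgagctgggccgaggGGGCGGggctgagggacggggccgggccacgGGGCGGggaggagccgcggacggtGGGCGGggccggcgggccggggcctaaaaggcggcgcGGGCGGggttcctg
SLC7A1, chr13:29595689-29595938, minus strand: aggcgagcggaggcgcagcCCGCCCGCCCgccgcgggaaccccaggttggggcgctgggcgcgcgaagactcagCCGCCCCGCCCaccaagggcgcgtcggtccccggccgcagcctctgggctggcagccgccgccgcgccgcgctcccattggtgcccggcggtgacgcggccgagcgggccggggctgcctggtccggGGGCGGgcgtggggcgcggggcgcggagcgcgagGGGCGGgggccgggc
Of the 8 transporters, 7 had an entry in the promoter table, with 11 start sites, and SLC7A11 had none. From 250 bases before to 50 after a start site, all 7 held at least 1 GC box, as did 45.0% of all promoter windows and 48.3% of genes.

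A window of 250 bases before to 50 after each start site was also searched on both strands for TGATGNAA, the C/EBP-ATF response element that ATF4 and its partners are known to bind. It occurred at a start site of 4 transporters, SLC7A1, SLC38A1, SLC1A4 and SLC1A5, and of the heavy chain SLC3A2, and in 3.62% of all promoter windows (4.46% of genes). The 30 bases around each match, in GRCh38.p14, are set out because they show which of the genes that rose and which of those that did not carry these letters.
SLC7A1, chr13:29595663-29595692, minus strand: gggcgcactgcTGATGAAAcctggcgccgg
SLC38A1, chr12:46266502-46266531, minus strand: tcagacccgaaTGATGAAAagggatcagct
SLC1A4, chr2:64989381-64989410, plus strand: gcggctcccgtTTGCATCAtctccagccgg
SLC1A5, chr19:46784893-46784922, minus strand: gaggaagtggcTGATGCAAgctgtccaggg
SLC3A2, chr11:62881719-62881748, plus strand: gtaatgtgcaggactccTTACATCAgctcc
Capitals mark the match, which for SLC1A4 and SLC3A2 lies on the opposite strand. Its first base was 8 bases after the start site in SLC7A1, and 4, 7 and 97 bases before the start site of that window in SLC38A1, SLC1A4 and SLC1A5. SLC1A5 and SLC3A2 have several start sites, so that more windows were searched for them. Their match lay at a start site downstream of another one. Of the transporters that rose and have an entry, SLC7A1 held a match and SLC7A5 did not, while SLC38A1, SLC1A4 and SLC1A5, with a match, did not pass the test with WA. A match describes the letters and shows no binding.

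The core of the antioxidant response element, TGACNNNGC, was found at 3 of the transporters, SLC7A1, SLC7A5 and SLC1A5, and at SLC3A2, with 13.3% of all promoter windows holding it (16.1% of genes). The windows of the genes that rose are given with the match in capitals.
SLC7A5, chr16:87869490-87869519, minus strand: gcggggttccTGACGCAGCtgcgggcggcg
SLC7A1, chr13:29595754-29595783, minus strand: tgcccggcggTGACGCGGCcgagcgggccg
SLC3A2, chr11:62881652-62881681, plus strand: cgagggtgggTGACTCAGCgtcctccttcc
The heat shock element core GAANNTTC occurred at SLC38A1 only, and in 6.77% of all promoter windows.

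SLC7A11, the light chain of the cystine and glutamate exchanger, lies at chr4:139085251-139163503 on the minus strand of GRCh37, with 12 exons in the canonical transcript. In MM1S its level was 7.36, 30.01 and 16.4 CPM untreated (passages 16, 22 and 23) and 39.2, 50.9 and 82.0 CPM with WA. In MM1R it was 9.16, 11.5 and 6.24 CPM untreated (passages 4, 6 and 7) and 30.5, 36.4 and 61.8 CPM with WA. Each WA culture was above every untreated culture of its line, as was the case for 16.4% of all genes in MM1S and 17.3% in MM1R, and the gap was narrower in MM1S than in MM1R. Group means were 17.9 ± 11.4 and 57.4 ± 22.2 CPM in MM1S and 8.98 ± 2.65 and 42.9 ± 16.6 CPM in MM1R (SD, n = 3 cultures). The log2 fold change was 2.25 in MM1R (SE 0.44, edgeR adjusted p = 0.00436) and 1.68 in MM1S (SE 0.42, adjusted p = 0.0223). Between 107 and 1503 reads per culture lay behind these levels, and the antisense gene SLC7A11-AS1 had 0 to 15 reads.

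**Figure D1:**
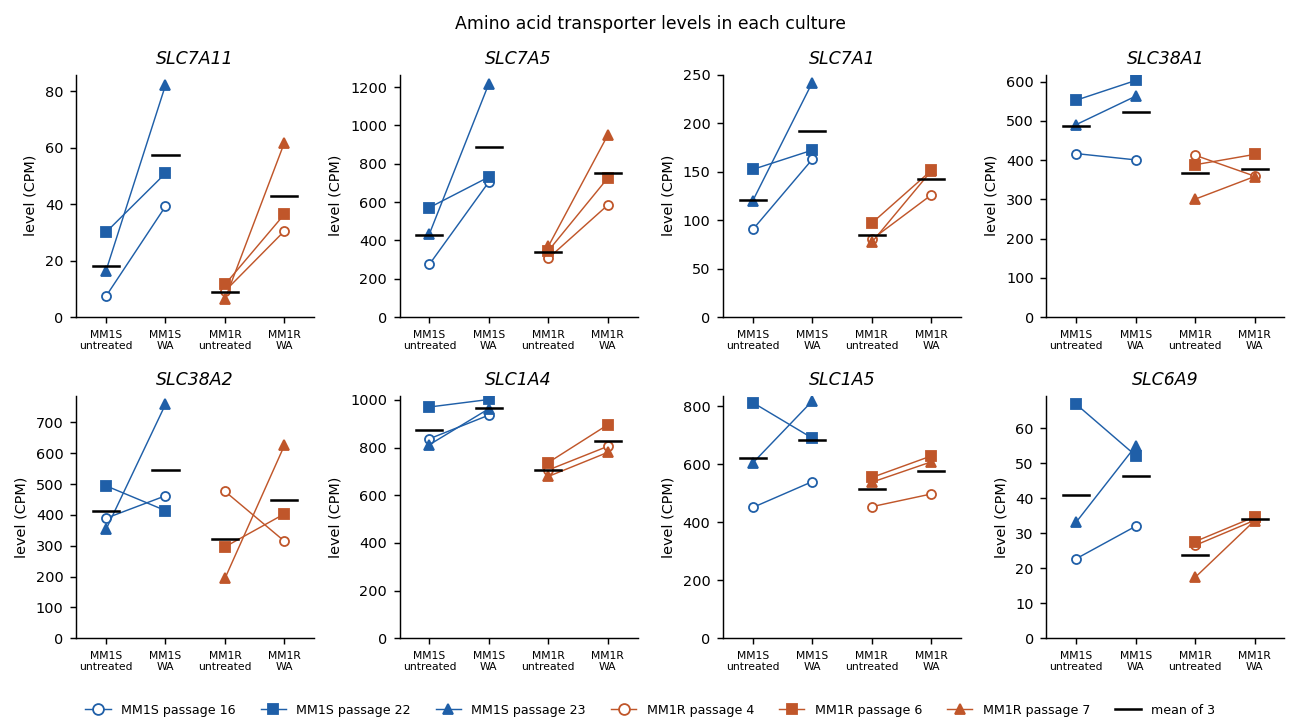
Level in CPM (linear axes from 0) of each transporter in the 12 cultures. Lines join cultures of 1 passage, and black bars are means of 3 cultures. SLC7A11, SLC7A5 and SLC7A1 lie higher with WA in all 6 pairs, while the lines of SLC38A2 cross.

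SLC7A5, the light chain that exchanges leucine and other large neutral amino acids for glutamine, lies at chr16:87863629-87903113 on the minus strand and has 10 exons. Untreated MM1S gave 275.0, 571 and 434 CPM and MM1S with WA 705, 731 and 1218 CPM. Untreated MM1R gave 307, 346 and 369 CPM and MM1R with WA 584, 726 and 950 CPM. The untreated and WA levels did not overlap in either line, and the untreated MM1R cultures were closer to each other than those of MM1S. The log2 fold change was 1.15 in MM1R (SE 0.26, edgeR adjusted p = 0.0109) and 1.05 in MM1S (SE 0.26, adjusted p = 0.0215).

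SLC3A2, the heavy chain that brings both SLC7A11 and SLC7A5 to the membrane, is not among the 8 genes but belongs with them in function. It was at 99.1, 243 and 169 CPM in untreated MM1S and at 403, 302 and 638 CPM with WA. In MM1R the levels were 118, 132 and 144 CPM untreated and 282, 329 and 614 CPM with WA. In each pair the WA culture was the higher for SLC3A2 and for both light chains. In untreated MM1S and in MM1R with WA, the cultures had the same order for SLC3A2, SLC7A5 and SLC7A11. In untreated MM1R SLC7A5 had the order of SLC3A2 and SLC7A11 did not. In MM1S with WA the lowest culture was passage 22 for SLC3A2 and passage 16 for both light chains. SLC3A2 rose with a log2 fold change of 1.64 in MM1R (SE 0.34, edgeR adjusted p = 0.00702) and 1.39 in MM1S (SE 0.34, adjusted p = 0.0204). In MM1S that call was lost without the untreated culture of passage 16 or 23 or the WA culture of passage 23, with an adjusted p of up to 0.0888. Without both WA cultures of highest DDIT3 SLC3A2 had log2 fold changes of 1.22 in MM1R and 1.05 in MM1S (adjusted p = 0.0212 and 0.044), and without passage 22 it was 1.95 in MM1S (adjusted p = 0.00896). The other heavy chain, SLC3A1, had at most 6 reads in a culture and was not tested.

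SLC7A1, the carrier of arginine, lysine and ornithine, needs no heavy chain. It lies at chr13:30083551-30169825 on the minus strand with 13 exons. Its levels were 90.4, 152 and 120 CPM in untreated MM1S, 163, 172 and 242 CPM in MM1S with WA, 80.1, 96.9 and 77.1 CPM in untreated MM1R and 126, 151 and 151 CPM in MM1R with WA. The groups of a line did not overlap, though in MM1S the untreated culture of passage 22 was close to the WA culture of passage 16. The log2 fold change was 0.75 in MM1R (SE 0.19, edgeR adjusted p = 0.0173) and 0.67 in MM1S (SE 0.19, adjusted p = 0.0365).

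These calls, from the fit without pairing, depended on single cultures. In MM1S the number of transporters called was 3 with all cultures, 0 without the untreated culture of passage 23, 0 without the WA culture of passage 23 and 1 without the untreated culture of passage 16. It was 2 without the untreated or the WA culture of passage 6 of MM1R, which share the estimate of spread with MM1S. SLC7A1 then had an adjusted p of 0.0588 and 0.0554. Without both WA cultures of highest DDIT3, the log2 fold change of SLC7A11 in MM1S was 1.33 (adjusted p = 0.0773, edgeR) and 0 transporters were called, whereas in MM1R it was 1.89 (adjusted p = 0.0195) and 3 were called. Without both cultures of passage 22, 3 were called in MM1S and SLC7A11 had a log2 fold change of 2.35 (adjusted p = 0.0117). In MM1R only SLC7A1 lost its call when a culture was left out, without untreated passage 7 (adjusted p = 0.0711), WA passage 6 (0.0529) or WA passage 7 (0.0549).

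With passage number as a replicate block, which pairs each WA culture with its untreated counterpart, 5 transporters were called higher in MM1R and 3 in MM1S, beside 29.1% and 24.1% of all genes called in that fit (14.7% and 12.5% higher). The 2 added in MM1R were SLC1A4 (adjusted p = 0.0319) and SLC6A9 (adjusted p = 0.0461). For SLC7A11, SLC7A5 and SLC7A1 the edgeR adjusted p with the block was 0.000565, 0.000536 and 0.00151 in MM1R. In MM1S it was 0.00183, 0.0009 and 0.00343. No culture was left out in the fit with the block.

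Neither of the 2 sodium-coupled SLC38 carriers passed the test. SLC38A1, which takes up glutamine and alanine, lies at chr12:46576846-46663800 on the minus strand with 17 exons. It gave 417, 553 and 490 CPM in untreated MM1S and 400.4, 603 and 563 CPM with WA. In MM1R it gave 412, 388 and 300.4 CPM untreated and 359, 414 and 358 CPM with WA. The ranges of untreated and WA levels overlapped in both lines, with log2 fold changes of 0.04 in MM1R (95% interval -0.32 to 0.39) and 0.10 in MM1S (-0.25 to 0.46).

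SLC38A2, a carrier of small neutral amino acids known to rise when amino acids are withdrawn, is its neighbour at chr12:46751971-46766556, minus strand, with 16 exons. Its levels were 389, 494 and 353 CPM in untreated MM1S, 462, 414 and 759 CPM in MM1S with WA, 477, 296 and 194 CPM in untreated MM1R, and 315, 403 and 626 CPM in MM1R with WA. In MM1R passage 4 was the highest untreated culture and the lowest WA culture, and passage 7 was the lowest untreated and the highest WA culture. The fitted log2 fold change was 0.47 in MM1R (SE 0.32, 95% interval -0.21 to 1.16, edgeR adjusted p = 0.364) and 0.40 in MM1S (SE 0.32, -0.28 to 1.08, adjusted p = 0.483). These intervals include both 0 and a log2 change of 1.

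Neither of the SLC1 carriers, which had the highest untreated levels of the 8 per length, passed the test. SLC1A4, which exchanges alanine, serine, cysteine and threonine, lies at chr2:65215611-65250999 on the plus strand with 8 exons. Untreated MM1S gave 837, 970 and 812 CPM, MM1S with WA 936, 1002 and 963 CPM, untreated MM1R 706, 737 and 679 CPM and MM1R with WA 805, 896 and 780.1 CPM. In MM1R the WA cultures all lay above the untreated ones, and the log2 fold change was 0.23 (SE 0.11, edgeR adjusted p = 0.177). In MM1S it was 0.15 (SE 0.11, adjusted p = 0.429) and the levels overlapped.

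SLC1A5, the exchanger through which many cells take up glutamine, lies at chr19:47278140-47291851 on the minus strand with 8 exons. It was at 451, 813 and 605 CPM in untreated MM1S and 540.3, 690.4 and 819 CPM with WA, and at 454, 555 and 538 CPM in untreated MM1R and 498, 629 and 609 CPM with WA. Untreated and WA cultures overlapped in both lines. Log2 fold changes were 0.17 in MM1R (95% interval -0.26 to 0.59) and 0.13 in MM1S (-0.29 to 0.56), so that a log2 change of 1 lay outside both intervals.

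SLC6A9, the glycine transporter, lies at chr1:44457172-44497139 on the minus strand with 14 exons. It gave 22.7, 66.8 and 33.2 CPM in untreated MM1S, 32.0, 52.1 and 54.9 CPM in MM1S with WA, 26.5, 27.6 and 17.4 CPM in untreated MM1R and 33.7, 34.7 and 33.6 CPM in MM1R with WA. The 3 MM1R cultures with WA were nearly equal and all above the untreated ones, while in MM1S the highest culture was untreated. The log2 fold change was 0.51 in MM1R (SE 0.32, edgeR adjusted p = 0.326) and 0.18 in MM1S (SE 0.31, adjusted p = 0.787). CCDC24, on the opposite strand, had 34 to 68 reads against 298 to 1293 for SLC6A9.

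**Figure D2:**
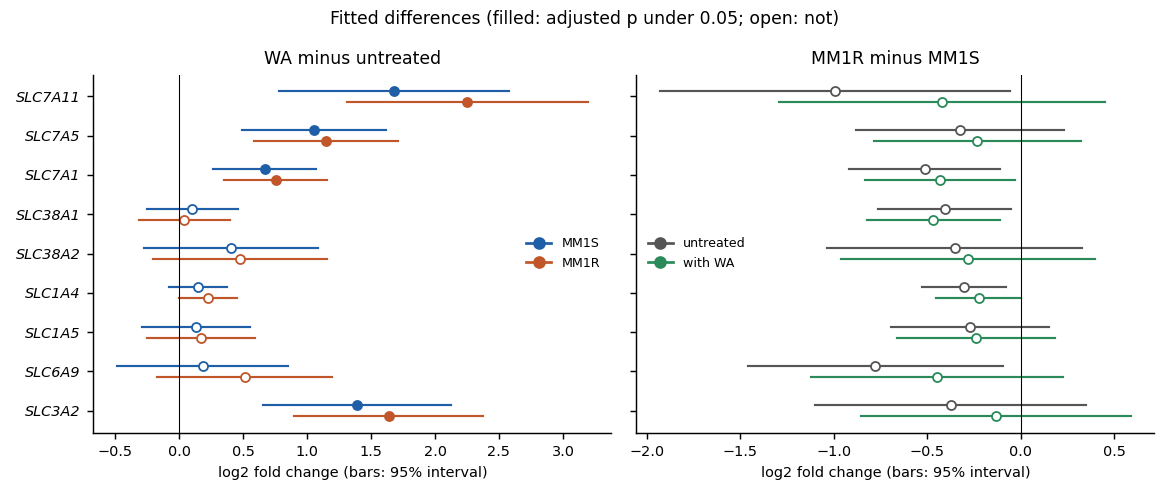
Fitted log2 fold changes of the 8 transporters and SLC3A2, with 95% intervals, for WA minus untreated in each line (left) and MM1R minus MM1S in each treatment (right). Filled points have an adjusted p under 0.05 and open points do not. SLC7A11, SLC7A5, SLC7A1 and SLC3A2 are filled on the left in both lines, and no point is filled on the right.

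The effect of WA on the transporters was not shown to differ between the lines. The test of the difference itself (an interaction term in edgeR) called 0 of 14085 genes (0%), with 97 at an unadjusted p under 0.05 and 1 (0.0071%) called by DESeq2, and 0 transporters reached an unadjusted p of 0.05. The largest estimate was that of SLC7A11, 0.57 higher in MM1R on the log2 scale (SE 0.59, 95% interval -0.70 to 1.85), and it was -0.02 without the untreated MM1S culture of passage 22. The intervals were narrower for SLC7A5 (-0.69 to 0.88) and SLC7A1 (-0.49 to 0.65), and narrowest for SLC1A4 (-0.24 to 0.40).

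Comparing the lines, no transporter differed by at least 1 on the log2 scale with an adjusted p under 0.01, in untreated cells or with WA, beside 2.97% and 3.04% of all genes. In edgeR with all libraries none reached an adjusted p of 0.05 either, beside 11.9% and 12% of all genes. By DESeq2, which called 14.8% and 14.9% of all genes at that limit, SLC1A4 reached it untreated (adjusted p = 0.0168) and SLC38A1 with WA (adjusted p = 0.0484). Without the untreated MM1S culture of passage 16, so did SLC7A11 (adjusted p = 0.0252, edgeR), SLC7A1 (0.0218) and SLC6A9 (0.0212), and without the WA culture of that passage SLC38A1 did with WA (0.0112). The fitted values were nonetheless below 0 in MM1R for all 8 genes in both treatments, with medians of -0.38 untreated and -0.35 with WA, against 0.01 and -0.01 over all genes. Without the WA culture of MM1S passage 23 SLC7A5 (0.07) and SLC38A2 (0.03) were above 0 with WA. In untreated cells 5 of the 8 had an unadjusted p under 0.05, as did 25.9% of all genes (12% lower in MM1R). With WA 2 of the 8 did, SLC7A1 and SLC38A1, beside 28.0% of all genes (13.9% lower in MM1R). The 5 in untreated cells were SLC7A11 (log2 fold change -0.99, edgeR adjusted p = 0.165), SLC6A9 (-0.78, adjusted p = 0.135), SLC7A1 (-0.51, adjusted p = 0.0966), SLC38A1 (-0.41, adjusted p = 0.133) and SLC1A4 (-0.30, adjusted p = 0.0792). The untreated culture of passage 22, the highest of MM1S, bears on these values. As each library was left out in turn, SLC7A11 ranged from -1.37 to -0.40 and SLC6A9 from -1.07 to -0.23, with the value nearest 0 without that culture. Levels of the lines did not overlap for SLC38A1 and SLC1A4 when untreated, or for SLC7A1 and SLC1A4 with WA. Among all genes, 15.7% and 14.4% lay below without overlap in MM1R.

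A further carrier of the SLC38 family had the opposite pattern. SLC38A5, which transports glutamine, serine and glycine and is not among the 8 genes, was at 341, 370.3 and 409 CPM in untreated MM1S and at 1250, 1373 and 1806 CPM in untreated MM1R. It was higher in MM1R with a log2 fold change of 1.98 untreated (edgeR adjusted p = 4.45e-06) and 1.87 with WA (adjusted p = 8.21e-06). It was the only gene among 11 other tested plasma membrane amino acid transporters called between the lines at the stricter limits. WA left it without a call, at log2 fold changes of -0.18 in MM1R and -0.07 in MM1S.

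Per kilobase of exon, so that genes can be set beside each other, the order of the 8 was nearly the same in every group. In untreated MM1S SLC1A5 led with 187.0 ± 54.5 CPM per kb (SD, n = 3), followed by SLC1A4 (126 ± 12.3), SLC7A5 (89.6 ± 31.1), SLC38A2 (63.3 ± 11.3), SLC38A1 (48.6 ± 6.80), SLC7A1 (15.7 ± 4.03), SLC6A9 (7.79 ± 4.39) and SLC7A11 (1.86 ± 1.18). The first 5 formed a chain in which each overlapped the next, and SLC38A1 and SLC7A1 were separated in all 4 groups. Untreated MM1R had the same order, from 155 ± 16.2 CPM per kb for SLC1A5 to 0.93 ± 0.27 for SLC7A11. With WA, SLC7A5 moved to the second place, at 186 ± 60.7 CPM per kb in MM1S and 158 ± 38.7 in MM1R, and its range overlapped that of SLC1A5 (205 ± 41.8 and 174 ± 21.2). SLC7A11 stayed the lowest, at 5.95 ± 2.30 and 4.45 ± 1.72 CPM per kb, but its range then overlapped that of SLC6A9 in both lines. The order was the same with the length of the longest transcript.

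**Figure D3:**
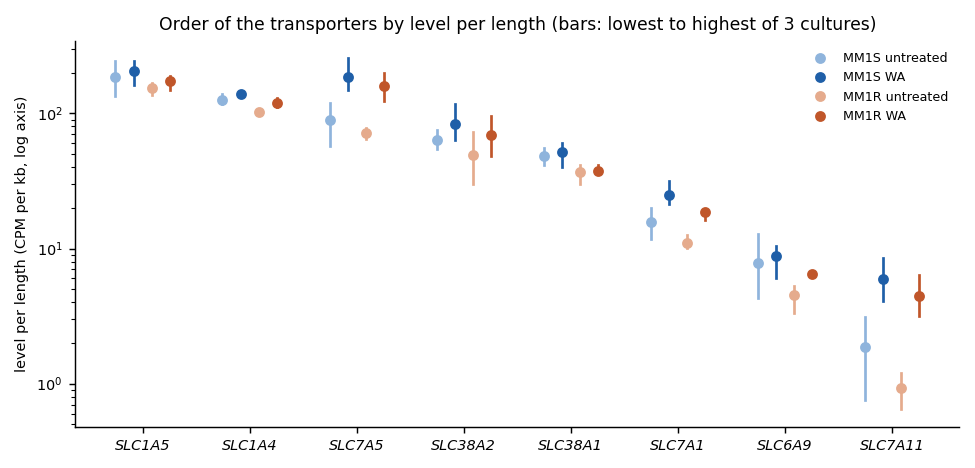
Mean level per length (CPM per kb of exon, log axis) of the 8 transporters in the 4 groups, with bars from the lowest to the highest of 3 cultures. SLC1A5 is the highest and SLC7A11 the lowest in each group, and SLC7A5 rises to the second place with WA.

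Summed over the 8 genes, the level was 2489, 3651 and 2863 CPM in untreated MM1S and 3278, 3715 and 4701 CPM with WA, and 2471, 2458 and 2181 CPM in untreated MM1R and 2751, 3291 and 3568 CPM with WA. Within pairs of the same passage the WA culture was higher in all 6, by very different amounts. On the log2(CPM + 0.5) scale the change of SLC7A11 was 2.34, 0.75 and 2.29 for passages 16, 22 and 23 of MM1S and 1.68, 1.62 and 3.21 for passages 4, 6 and 7 of MM1R. SLC7A5 changed by 1.36, 0.36 and 1.49 in MM1S and by 0.93, 1.07 and 1.36 in MM1R. SLC7A1 gave 0.84, 0.18 and 1.01, and 0.65, 0.64 and 0.96. Passage 22 thus had the smallest change of the 6 for each of the 3 genes, and SLC1A5, SLC6A9 and SLC38A2 were lower with WA in that pair, at -0.24, -0.35 and -0.26. Of the 8 transporters, 5 were higher with WA in passage 22, 6 in passage 4, 7 in passage 16 and 8 in each of passages 23, 6 and 7.

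The named genes of the amino acid response and of the NRF2 list were set beside these pairs. DDIT3, the stress transcription factor CHOP, changed by 2.18, 0.31 and 3.31 in MM1S and 1.51, 1.35 and 4.36 in MM1R. CHAC1, which degrades glutathione and is an ATF4 target, changed by 3.52, -1.12 and 3.67 in MM1S and 2.09, 2.005 and 4.75 in MM1R. Both had their smallest change in passage 22 and their largest in passage 7, as SLC7A11 had. In untreated passage 22 CHAC1 stood at 58.0 CPM against 4.66 and 15.9 CPM in the other untreated MM1S cultures. GCLM, the modifier subunit of the enzyme that starts glutathione synthesis, changed by 1.08, 1.42 and 1.29 in MM1S and 0.87, 1.29 and 1.06 in MM1R. TXNRD1, thioredoxin reductase, changed by 0.68, 1.08 and 0.65, and by 0.65, 0.80 and 0.25. Passage 22 had the smallest change of the 6 pairs for all 6 named response genes (DDIT4, PPP1R15A, CHAC1, DDIT3, ATF3 and CTH). Among the 6 named NRF2 list genes it had the largest change for GCLM, TXNRD1 and SRXN1, an intermediate change for NQO1 and OSGIN1, and the smallest for HMOX1 (5.86). The orders are a description of 6 pairs and were not tested.

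**Figure D4:**
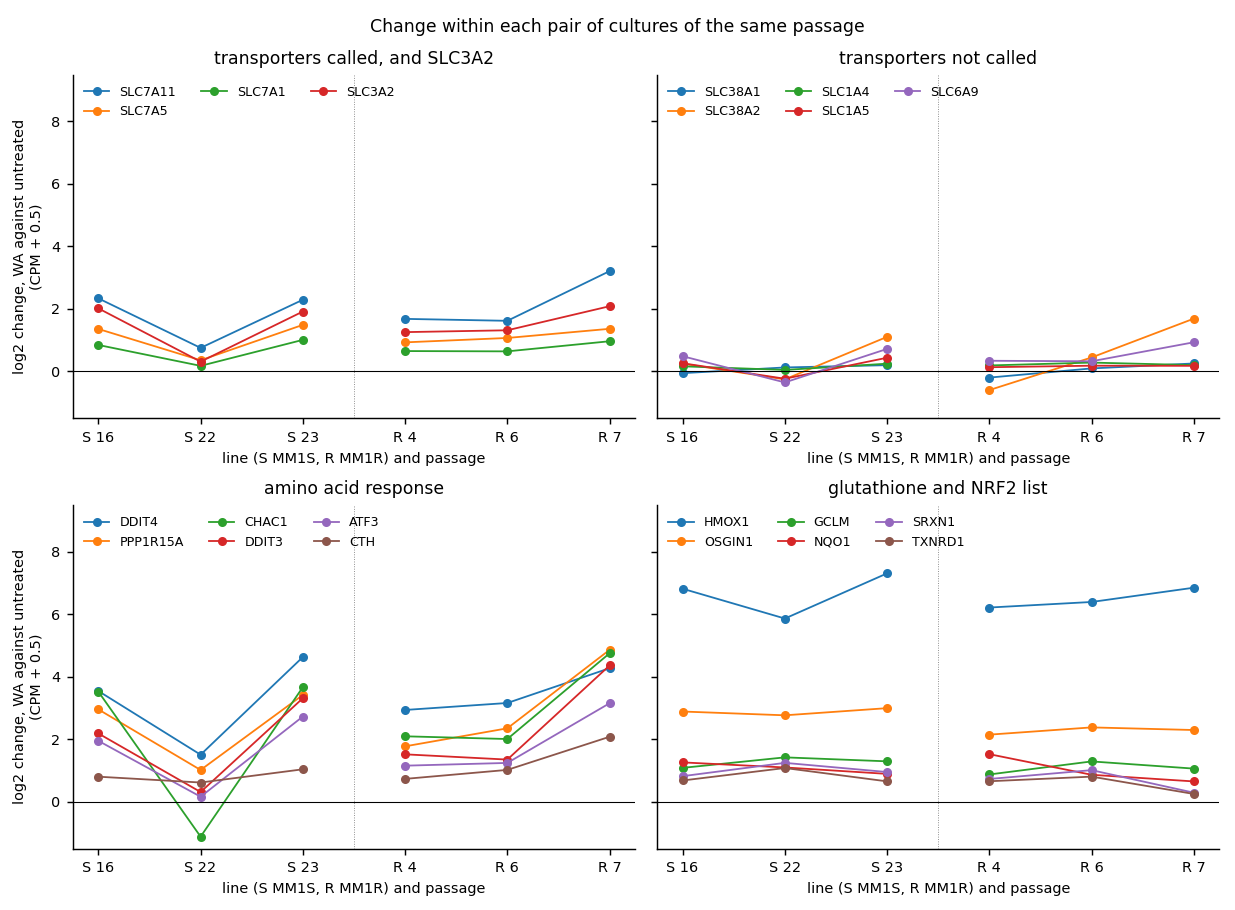
Change with WA within each pair of cultures of the same passage, as the difference of log2(CPM + 0.5), for the transporters that were called and SLC3A2, the other transporters, the named amino acid response genes and the named NRF2 list genes. Lines join pairs of a cell line only to guide the eye. Passage 22 of MM1S is the lowest pair for SLC7A11 at 0.75 and for CHAC1 at -1.12, and the highest for GCLM at 1.42.

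The genes whose levels ran most closely with each transporter over the 12 libraries were named as a description. They share libraries, and the correlations carry no p. Differences between untreated and WA cultures and between lines were left in. Genes that moved alike with WA therefore correlate through that step. SLC7A5 was closest to its heavy chain SLC3A2 (Pearson r = 0.986 of log2 CPM, among 12322 genes), then to MTHFD2 (0.981), a mitochondrial folate enzyme, and TSEN15 (0.976). SLC7A11 was closest to CEP120 (0.987), YES1 (0.983) and FAM107B (0.978), and SLC7A1 to KIF21B (0.962), FAM107B (0.960) and MTHFD2 (0.960). SLC1A5 was closest to the tyrosyl-tRNA synthetase YARS (0.957), the serine hydroxymethyltransferase SHMT2 (0.954) and the alanyl-tRNA synthetase AARS (0.945), and SLC6A9 to NDUFA4L2 (0.947), AARS (0.936) and KLHL2 (0.932). The nearest genes were KIF5B (0.970), FER (0.957) and WAPL (0.956) for SLC38A1, PTPN4 (0.927), ZNF419 (0.924) and KMT2E (0.920) for SLC38A2, and TREML2 (0.951), B4GALT5 (0.944) and AIDA (0.937) for SLC1A4. Among the transporters themselves, SLC7A11 ran with SLC7A5 (0.97) and SLC7A1 (0.96), and the loosest pair was SLC7A5 with SLC38A1 (0.36).

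Other amino acid transporters were tested beside the 8. Of 32 other plasma membrane amino acid transporters listed, 11 were tested. None was called with WA in MM1R, and in MM1S only SLC6A8, the creatine transporter, rose, from 2.33, 2.89 and 2.04 to 7.15, 3.52 and 4.58 CPM (log2 fold change 1.07, edgeR adjusted p = 0.0266). That is 1 of 11, beside 6.25% of all genes higher in MM1S, and the call was lost without both WA cultures of highest DDIT3 (adjusted p = 0.0585) and kept without passage 22 (adjusted p = 0.0231). The median log2 fold changes of the 11 were -0.02 in MM1R and 0.08 in MM1S. With the replicate block 1 was called higher and 2 lower in MM1R, and 2 higher and 2 lower in MM1S. That fit called 14.7% of all genes higher and 14.4% lower in MM1R, and 12.5% and 11.7% in MM1S. Of 9 tested lysosomal and intracellular transporters none was called in either line, and 1 was called higher in each line with the replicate block. Of 10 tested mitochondrial amino acid carriers 3 fell in both lines and none rose, with medians of -0.28 and -0.29, beside 6.46% and 4.23% of all genes that fell. With the replicate block 4 were lower and 1 higher in MM1R, and 3 lower and 1 higher in MM1S. Without both WA cultures of highest DDIT3 2 were called lower in MM1R and 0 in MM1S, and without passage 22 0 were in MM1S. They were the glutamate carrier SLC25A22 (log2 fold change -0.52 in MM1R and -0.38 in MM1S, edgeR adjusted p = 0.00604 and 0.0373), the glycine carrier SLC25A38 (-0.55 and -0.39, adjusted p = 0.00329 and 0.0275) and the serine carrier SFXN1 (-0.50 and -0.36, adjusted p = 0.00861 and 0.048).

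Genes whose proteins report amino acid supply to the kinase complex mTORC1 were the next list. Of 23 tested, 3 rose and 3 fell in MM1R, and 3 rose and none fell in MM1S, with medians of -0.09 and -0.07, beside 7.55% of all genes higher and 6.46% lower in MM1R and 6.25% and 4.23% in MM1S. With the replicate block 4 were higher and 6 lower in MM1R and 3 higher and 4 lower in MM1S, where that fit called 14.7% higher and 14.4% lower, and 12.5% and 11.7%. Without both WA cultures of highest DDIT3 3 were higher and 1 lower in MM1R and 2 higher in MM1S, and SESN3 and BMT2 kept their calls in both lines. SESN3, a sestrin that restrains mTORC1, stood at 58.3, 28.4 and 28.0 CPM in untreated MM1S and 284, 88.7 and 221 CPM with WA, and at 24.3, 23.9 and 19.1 CPM in untreated MM1R and 79.8, 120.3 and 240 CPM with WA. Groups did not overlap in either line, and the log2 fold changes were 2.71 in MM1R (SE 0.45, edgeR adjusted p = 0.00167) and 2.37 in MM1S (SE 0.44, adjusted p = 0.00421). BMT2, which encodes the S-adenosylmethionine sensor SAMTOR, rose from 9.68 to 15.9 CPM over the 6 untreated cultures to 40.9 to 71.8 CPM over the 6 with WA, with log2 fold changes of 2.11 (adjusted p = 8.93e-05) and 2.05 (adjusted p = 0.0001). RRAGB, a Rag GTPase, rose in MM1R by 0.73 (adjusted p = 0.00436), and LAMTOR3, of the lysosomal anchor of the Rag proteins, rose in MM1S by 0.37 (adjusted p = 0.0319). The GATOR2 subunits SEH1L (-0.73, adjusted p = 0.0254) and WDR24 (-0.40, adjusted p = 0.0235) fell in MM1R together with the GATOR1 subunit DEPDC5 (-0.41, adjusted p = 0.032).

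**Figure D5:**
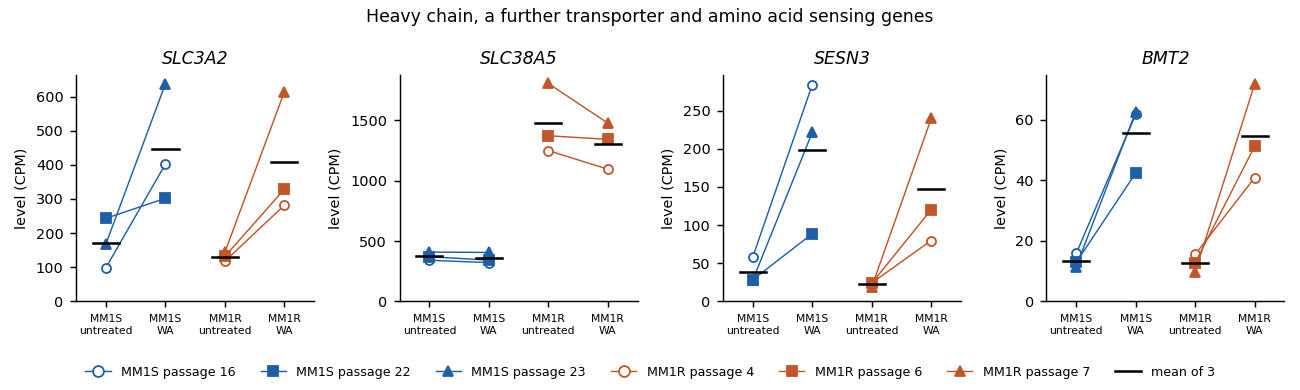
Level in CPM (linear axes from 0) of the heavy chain SLC3A2, the carrier SLC38A5 and the sensing genes SESN3 and BMT2 in the 12 cultures. Lines join cultures of the same passage, and black bars are means of 3. SLC38A5 lies between 322 and 409 CPM in MM1S and between 1096 and 1806 CPM in MM1R with no call for WA, while the other 3 genes are higher with WA in every pair.

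The list of the amino acid response, with GCN2 and other eIF2alpha kinases, ATF4 and its targets, rose in part. Of 25 tested genes 9 rose in MM1R and 4 in MM1S, beside 7.55% and 6.25% of all genes. None was called lower, beside 6.46% and 4.23% of all genes, and medians were 0.63 and 0.55. Without both WA cultures of highest DDIT3 6 and 5 were called higher, without passage 22 8 were in MM1S, and with each library left out in turn 4 to 13 were in MM1R and 2 to 6 in MM1S. With the replicate block 15 rose and 1 fell in MM1R, where that fit called 14.7% of all genes higher and 14.4% lower. In MM1S 10 rose in that fit, beside 12.5% of all genes. Called in both lines were DDIT4, an inhibitor of mTORC1 (log2 fold change 3.66 in MM1R and 3.56 in MM1S, edgeR adjusted p = 0.000695 and 0.0011), PPP1R15A, the phosphatase subunit that reverses eIF2alpha phosphorylation (3.55 and 2.63, adjusted p = 0.004 and 0.0217), CTH, which makes cysteine from cystathionine (1.42 and 0.90, adjusted p = 0.00196 and 0.0332), and the kinase gene EIF2AK2 (0.59 and 0.66, adjusted p = 0.00281 and 0.00148). EIF2AK2 encodes PKR, an eIF2alpha kinase other than GCN2. The GCN2 gene, EIF2AK4, was called in neither line. Its log2 changes within pairs were -0.098, -0.16 and -0.15 in MM1S and -0.45, -0.059 and -0.20 in MM1R. CHAC1, DDIT3 and ATF3 passed the limit in MM1R (3.49, 3.06 and 2.10, adjusted p = 0.0247, 0.0131 and 0.0223). In MM1S they had 1.90, 2.24 and 1.74 (adjusted p = 0.193, 0.057 and 0.0565). The test of a difference between the lines in the WA effect called none of them. ATF4 itself had 0.66 in MM1R (adjusted p = 0.0543) and 0.33 in MM1S (adjusted p = 0.375). ASNS, asparagine synthetase and a classical target of this pathway, was between 1.05 and 3.10 CPM in all 12 cultures.

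Genes of glutathione synthesis, which uses the cysteine that SLC7A11 brings in, were listed together with NRF2 target genes. Of 15 tested members 8 were higher in each line. These were the same 8 genes, beside 7.55% of all genes higher in MM1R and 6.25% in MM1S. None was lower, beside 6.46% and 4.23% of all genes, and medians were 0.49 in MM1R and 0.50 in MM1S. With the replicate block 8 were higher in each line, beside 14.7% of all genes in MM1R and 12.5% in MM1S. In that fit 1, KEAP1, was lower in MM1R, beside 14.4% of all genes. Without both WA cultures of highest DDIT3 4 were called higher in MM1R and 7 in MM1S, and without passage 22 4 were in MM1S. HMOX1, heme oxygenase, had the largest change of the list, from between 8.99 and 25.6 CPM in the untreated cultures to between 551 and 3005 CPM with WA (log2 fold change 6.62 in MM1R and 6.92 in MM1S). OSGIN1 (2.65 and 3.64), GCLM (1.10 and 1.29), the quinone reductase NQO1 (0.97 and 1.10), SRXN1 (0.67 and 1.02) and TXNRD1 (0.57 and 0.82) rose as well, with edgeR adjusted p of at most 0.0281. GCLC, the catalytic subunit of the glutathione enzyme, rose by 0.51 in MM1R and 0.50 in MM1S. NFE2L2, the gene of NRF2, gave 0.02 and 0.19 (adjusted p = 0.959 and 0.42).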

How the data were processed

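Total RNA of 12 cultures was sequenced with paired-end reads on the BGISEQ-500 platform, 3 cultures in each of 4 groups given by the labels, with the passage as replicate number. The submitters' processing notes name FastQC 0.11.5, STAR 2.7.3a, the genome build hg19 and DESeq2. The authors deposited raw counts of reads by gene and culture, with no normalization. The gene models, and whether counting used strand, are not given in the sources used here, so that reads of overlapping genes may be shared. A further deposited table of normalized values was not used.

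Genes were kept by edgeR's filterByExpr (minimum count 10) and scaled with TMM, and the quasi-likelihood test of edgeR 4.0.16 (R 4.3.3) was fitted to the 12 libraries jointly, with Benjamini-Hochberg adjustment over 14085 genes. For the lines, a call needed an adjusted p under 0.01 and a difference of at least 1 on the log2 scale, the limits of the study. Changes within pairs used CPM with a pseudocount of 0.5. Gene coordinates are those of GENCODE on GRCh37, and promoters those of RefSeq on GRCh38.p14. The 8 genes and the lists were chosen with earlier results of these data known. Genes named from the further lists had an adjusted p under 0.05 for WA in at least 1 line at a mean of at least 1 CPM, up to 6 per list by mean absolute log2 fold change, and 3 genes of highest correlation are named per transporter. EIF2AK2, EIF2AK4, JCHAIN, CD38, DEPDC5, KEAP1, GCLC, NFE2L2, ATF4, ASNS, SLC38A5 and the genes of the list comparison between lines were named after their values were seen.

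The chi-square between replicates was 8.06 to 44.3 per degree of freedom, above sampling noise, so that no library was counted as deposited repeatedly. The untreated and WA cultures of the same passage deviated together from their group means, with correlations of 0.18 to 0.71. A fit with passage as replicate block was therefore treated as paired. Cultures of unlike passage had correlations of -0.59 to 0.37. In MM1S untreated passage 22 with WA passage 23 (0.31), and untreated 23 with WA 22 (0.37), exceeded the passage 22 pair itself (0.25). On simulated counts with genes changed 3-fold, edgeR recovered 80.6% of them for WA in MM1R and 82.4% in MM1S, with 7.6% and 5.75% of its calls false. Between the lines, untreated and with WA, 14.1% and 12.8% of DESeq2 calls were false, against 1.76% and 3.59% with edgeR. Pairing and smaller changes, such as those of SLC7A5 and SLC7A1, were not simulated. The alternatives were DESeq2 1.42.0, its size factors, other count filters and thresholds, the replicate block, only the libraries compared, and each library left out in turn. Leaving out the WA cultures of highest DDIT3, or passage 22, was chosen after seeing the data. Reads of a gene that overlaps a transporter are not reported here in every case.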

Additional observations from a re-analysis of the deposited data

How the results depend on the processing

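Of 760 recomputed log2 fold changes of the 8 transporters, 699 kept their direction and side of the threshold, 24 lost a call, 5 gained a call and 32, none of them called, changed sign. Of the sign changes 31 came with 1 library left out, and the other was SLC1A5 in MM1S, at -0.017 without the WA cultures of highest DDIT3. With each library left out, log2 fold changes with WA ranged from -0.087 to 0.13 for SLC38A1 in MM1R and in MM1S from -0.016 to 0.26 for SLC38A1, -0.055 to 0.37 for SLC1A5 and -0.11 to 0.73 for SLC6A9. Between lines with WA they ranged from -0.41 to 0.066 for SLC7A5 and -0.58 to 0.029 for SLC38A2. The difference between lines in the WA effect ranged from -0.021 to 0.94 for SLC7A11, -0.17 to 0.39 for SLC7A5, -0.12 to 0.28 for SLC7A1, -0.22 to 0.054 for SLC38A1, -0.22 to 0.47 for SLC38A2, -0.0055 to 0.15 for SLC1A4, -0.21 to 0.22 for SLC1A5 and -0.22 to 0.62 for SLC6A9. The number of transporters called with WA in MM1R, 3 as reported, was 5 with no filter on low counts, 5 with the replicate block, 1 at an adjusted p of 0.01 and 2 to 3 with each library left out. In MM1S, also 3, it was 0 with only the 6 libraries compared, 0 at an adjusted p of 0.01, 0 without the WA cultures of highest DDIT3 and 0 to 3 with each library left out. Between untreated lines no filter gave 1, SLC7A11 (log2 fold change -1.01). The replicate block changed no other call of a transporter. Genes called with WA, 1973 in MM1R and 1476 in MM1S, were 4094 and 3399 with the replicate block, 812 and 556 at an adjusted p of 0.01, 958 and 856 without the WA cultures of highest DDIT3, 856 in MM1S without passage 22, and 950 to 2396 and 726 to 1621 with each library left out. Between the lines, 419 genes untreated and 428 with WA became 811 and 819 with no filter, 234 and 222 with 10 reads or more required in each library, 1681 and 1690 at an adjusted p of 0.05 with no limit on the fold change, and 268 to 537 and 264 to 649 with each library left out. The difference between lines in the effect of WA had 0 genes, 11 with no filter and 1 by DESeq2. The cause of these shifts was not tested. With 3 cultures per group, intervals of SLC7A11, SLC38A2 and SLC6A9 were wide, and SLC7A11 rested on as few as 107 reads in a culture.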

Other observations

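Between the lines, 11.9% of all genes passed an adjusted p of 0.05 when untreated and 12% with WA (edgeR). Of 15 tested genes of glutathione synthesis and NRF2 targets, 3 were higher in MM1R when untreated (GGT1, GPX4 and OSGIN1), and with WA 2 were higher (GGT1 and GPX4) and 1 lower (GSR). GGT1, the surface enzyme that breaks down extracellular glutathione and so returns its cysteine, had a log2 difference of 0.89 untreated (adjusted p = 0.000327) and 0.86 with WA (adjusted p = 0.000424). For GPX4, which uses glutathione to reduce lipid peroxides, it was 0.46 and 0.47 (adjusted p = 0.0301 and 0.0294). Of 10 tested mitochondrial carriers, SLC25A13, for aspartate and glutamate, was lower in MM1R in both treatments, at -0.46 and -0.42 (adjusted p = 0.0193 and 0.0307), and SLC25A44 was higher when untreated. Of 23 tested genes of amino acid sensing, the GATOR1 subunit NPRL2 was lower in both treatments, at -0.47 and -0.48 (adjusted p = 0.0314 and 0.0273). Of 25 tested genes of the amino acid response, ATF5 was higher in MM1R in both treatments, and DDIT4 was called higher with WA. With WA DDIT4 was at 228, 306 and 748 CPM in MM1R against 110.3, 41.5 and 223 CPM in MM1S (log2 difference 1.77, edgeR adjusted p = 0.0328). In untreated cells it was not called, with levels of 29.4 to 38.25 CPM in MM1R and 8.55 to 14.3 CPM in MM1S.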
